A study of Mus musculus with 6 samples.

Results

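The p53 targets and apoptosis genes described here are a list of 30 genes, and their members on the array are the probes whose gene symbol in the platform's annotation is on that list. Of 45281 probes, 80 met this rule, and they covered 28 of the 30 genes. The levels of Trp53 and Bax were not analysed here. Total RNA of mouse lenses at postnatal day 30 had been hybridised to 6 Illumina BeadArrays, on which the brightness (intensity) of a bead-bound probe reports the abundance of a transcript. Of these, 3 came from mice heterozygous for a Tdrd7 mutation and 3 from Tdrd7 null mice, all on a mixed background given as C57BL/6J and C3A.Blia. Tdrd7 codes for a protein with Tudor domains found in RNA granules of the cytoplasm, and its loss is known to cause cataract. The controls therefore also carried a mutant Tdrd7 allele. The labels give neither the nature of the allele nor the sex of the mice, and nothing in them tells if separate animals were used within a group, so the p-values reflect no more than how far these samples scatter, possibly for technical reasons alone. Arrays 1, 2 and 3 below are heterozygous and arrays 4, 5 and 6 null, as the deposited table orders them.

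The transcription factor p53 is held at a low level by the ubiquitin ligase Mdm2, itself a p53 target, and after DNA damage it switches on genes that stop the cell cycle (Cdkn1a), limit stress (Sesn1, Gadd45a) or promote death (Bbc3, Pmaip1, Fas). Apoptosis runs through death receptors such as Fas, which recruit Fadd and Casp8, or through mitochondria, where BCL2 family proteins decide whether Apaf1 and Casp9 are engaged. Lens fibre cells lose their nuclei and organelles during normal differentiation without dying, while the epithelium on the front of the lens stays nucleated.

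The arrays carried lens RNA by its markers, but were uneven in the number of probes detected and in their correlations with one another. Of the 9 fibre cell markers with a probe, 8 or 9 were detected (detection p under 0.05) on every array, and the 8 tested lay between 14.06 and 15.40 on the normalized log2 scale. Heterozygous array 2 had the fewest probes detected, 12655, and null array 5 the most, 16204, and these 2 arrays had the lowest best correlations with any other array, 0.946 and 0.962, against at least 0.981 for the rest. Tdrd7 itself was 14.7-fold lower in null lenses, at 10.11 ± 0.43 (SD, n = 3) against 13.99 ± 0.22 (n = 3), with an adjusted p of 0.00139 (limma with Benjamini-Hochberg adjustment over all probes tested). Only 3 arrays per group limit the precision, and with 3 against 3 the smallest two-sided p of an exact permutation test is 0.1.

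No member probe passed the test between genotypes. Of the 80 member probes, 47 from 24 genes were detected on at least 3 of the 6 arrays and were tested, and 0 of them had an adjusted p under 0.05 in limma, where 0.174% of all 14902 probes tested did, 0.127% lower and 0.0470% higher in null lenses. Before adjustment, 10 of the 47 (21.3%) had a p under 0.05, against 8.70% of all probes, 8 of them lower (against 4.44% of all probes) and 2 higher (against 4.27%). They came from only 6 genes, Fas, Ccng1, Gadd45b and Sesn1 on the lower side and Cdkn1a and Casp9 on the higher side. Probes of one gene report on the same gene and are not separate evidence. The Cdkn1a probe among them was detected on no heterozygous array, so it entered the test only through the null arrays. Among probes detected in both groups, a restriction chosen after seeing the data, 9 of 45 member probes (20%) had an unadjusted p under 0.05. Of all such probes 8.13% did. By gene, each represented by its tested probe with the highest mean, 4 of 24 had an unadjusted p under 0.05, against 9.13% of the 8944 named genes tested. The 24 genes divided evenly, 12 higher and 12 lower, where 46.7% of all named genes tested were lower. Their median log2 difference was 0.059, against 0.024 over all named genes tested. Without heterozygous array 2 and null array 5, 0 of 42 member probes passed and 10 (23.8%) had an unadjusted p under 0.05, against 10.5% of all probes in that fit. The unadjusted count fell to 3 of 47 (6.38%, against 6.33% of all probes) when arrays were only scaled to a common median, and to 4 of 45 (8.89%, against 6.33%) without null array 6.

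**Figure D1:**
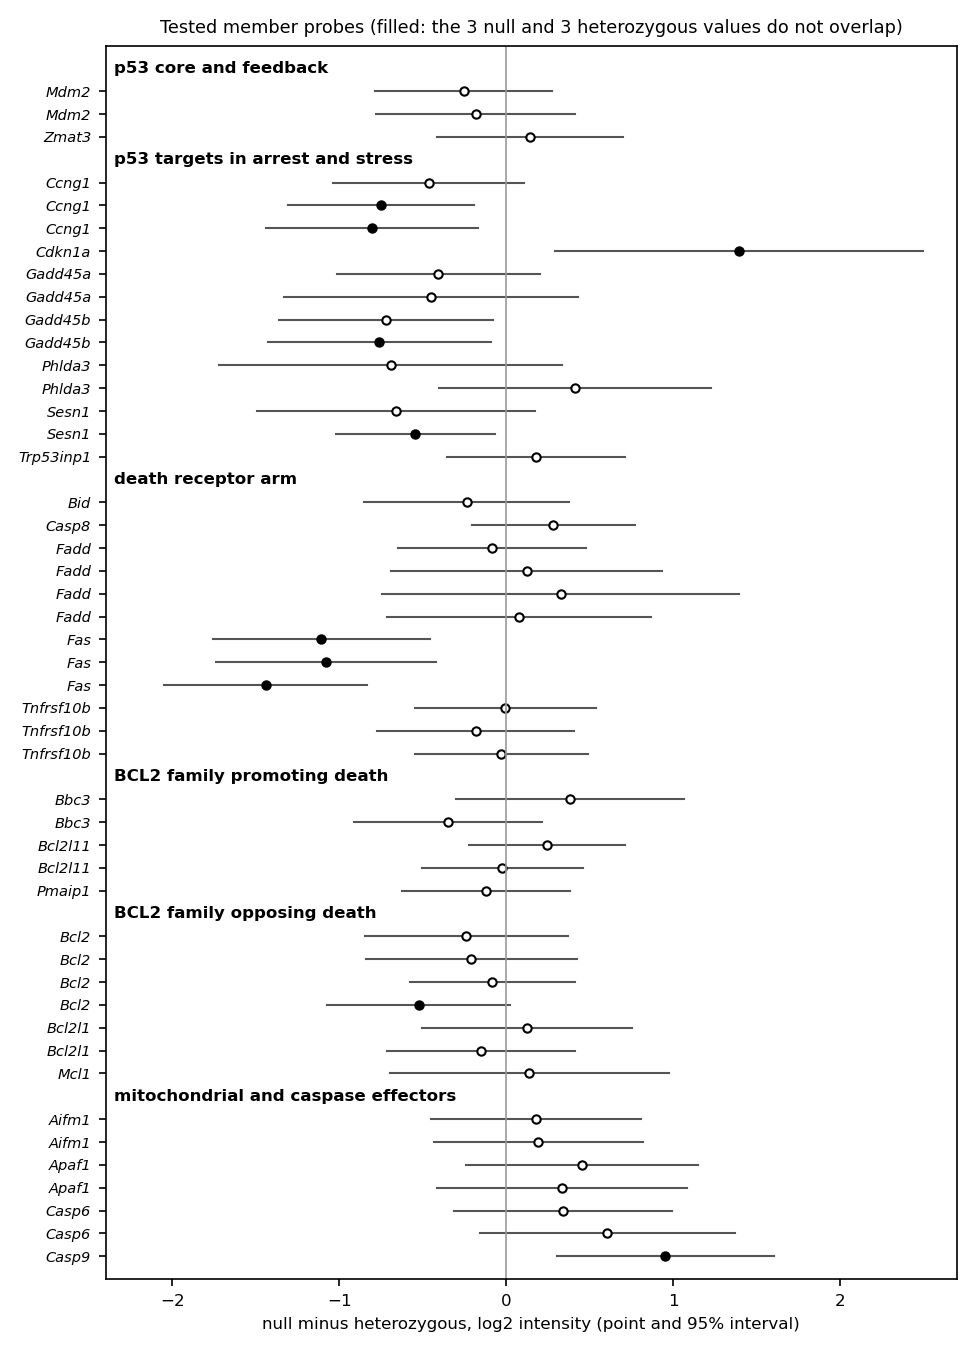
Null minus heterozygous difference in log2 intensity (x axis) of each of the 47 tested probes, in groups by role and with several rows for genes that have several tested probes; points are estimates, lines 95% intervals, and filled points mark the 10 probes whose 3 null and 3 heterozygous values do not overlap. The 3 Fas probes lie farthest to the left, between −1.44 and −1.08, and Cdkn1a is drawn at its fitted 1.40, although its heterozygous level is only a bound.

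Fas, the receptor of Fas ligand and a direct p53 target, was the member with the largest downward difference. It has 4 probes on the array, of which 3 were detected on all 6 arrays. On the brightest, the deposited intensity was 1775, 1475 and 1305 in the heterozygous samples, in array order, against 1340, 899 and 686 in the null samples, so before normalization null array 4 lay above heterozygous array 3. After background correction and quantile normalization its log2 intensity was 10.45, 11.11 and 10.64 in heterozygous and 10.16, 9.38 and 9.34 in null samples. All 3 null values then lay below all 3 heterozygous ones, with null array 4 the nearest to them.

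The second Fas probe had deposited intensities of 795, 647 and 605 on the heterozygous and 604, 471 and 332 on the null arrays. Normalized, it was at 9.22, 10.01 and 9.46 in heterozygous and 8.97, 8.31 and 8.17 in null samples, again without overlap. The third Fas probe, which is annotated to a different transcript record from the other 3, read 199, 162 and 164 on the heterozygous and 114, 115 and 106 on the null arrays. It separated the groups before normalization as well, and gave 6.95, 7.80 and 7.20 against 6.10, 5.59 and 5.94 after it. The fourth probe stayed at background. Its deposited intensities ran from 59.0 to 75.8, it was detected on null array 6 alone (detection p = 0.0256), and its groups overlapped (exact two-sided permutation test, p = 0.9).

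The log2 difference between null and heterozygous lenses was −1.11 ± 0.29 (SE) on the brightest Fas probe, a 2.16-fold lower intensity (95% interval of the log2 difference −1.76 to −0.46, limma adjusted p = 0.25). It was −1.08 ± 0.29 on the second (2.11-fold, −1.74 to −0.42, limma adjusted p = 0.274) and −1.44 ± 0.27 on the third (2.72-fold, −2.05 to −0.83, limma adjusted p = 0.0883). The 3 probes thus gave one direction and sizes within each other's intervals, and none passed over all probes tested. Each had an exact permutation p of 0.1, the smallest that 3 against 3 allow. With array weights, which count arrays that fit poorly for less, the third probe passed (−1.21 ± 0.19, limma adjusted p = 0.0112), the one case among 16 alternatives. Its adjusted p ran from 0.0112 to 0.591 over them, and no Fas probe turned direction in any. Without heterozygous array 2 and null array 5 the differences were −0.79, −0.78 and −1.08.

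**Figure D2:**
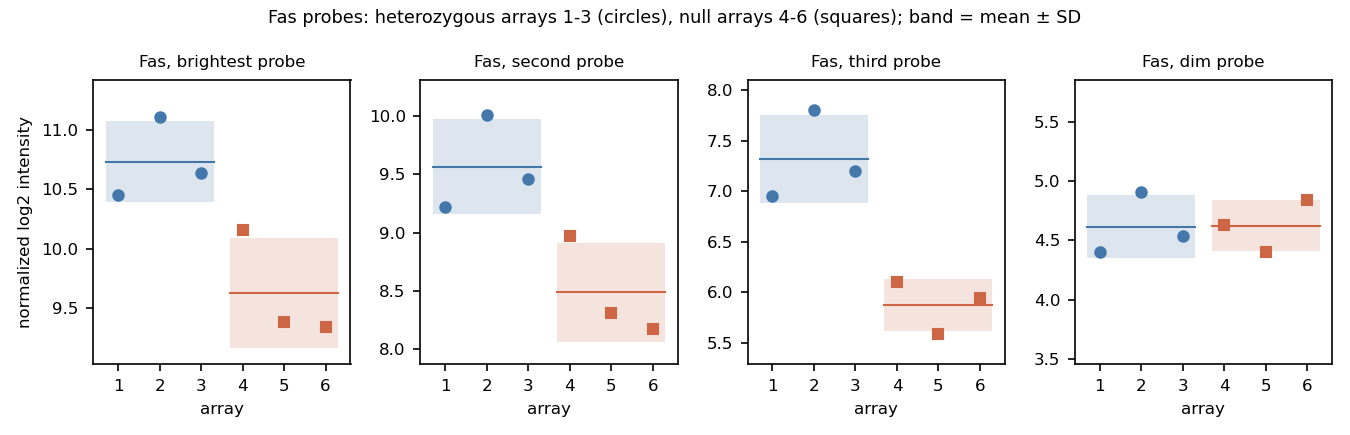
Normalized log2 intensity (y axis, one scale per panel) of the 4 Fas probes on heterozygous arrays 1 to 3 (circles) and null arrays 4 to 6 (squares), with lines at the group means and bands of 1 SD. On the 3 detected probes every null value lies below every heterozygous value, and on the dim probe the groups overlap.

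In RNA of a whole lens, fewer cells of a type and less RNA per cell cannot be told apart. The 5 tested of the 6 lens epithelium markers averaged 1.03, −1.72 and 0.69 in heterozygous samples, as log2 differences from their heterozygous mean, and 0.46, −0.35 and 0.81 in null samples, so their groups overlapped. The summed intensity of that list ran from 328 to 5932 in heterozygous and from 1312 to 4792 in null samples, and Npnt was detected on no array. On heterozygous array 2, where the epithelium markers were lowest, all 3 Fas probes were at their highest after normalization, whereas their deposited intensities were highest on heterozygous array 1. Retinal photoreceptor markers were at −1.0, 0.78 and 0.22 in heterozygous and 0.88, 0.51 and 0.51 in null samples. Pigment cell markers, 3 tested of 6 listed, were highest on heterozygous array 2 as Fas was, at −0.42, 0.79 and −0.37 in heterozygous and −0.44, −0.81 and −0.47 in null samples, all 3 genes with a lower mean in null lenses. Their summed intensity ran from 168 to 351 in heterozygous and from 142 to 172 in null samples, and Tyr and Mlana were detected on no array. The part of these markers in the Fas values was not tested.

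The other death receptor genes did not share the Fas pattern. Tnfrsf10b, the TRAIL receptor and another p53 target, differed by −0.0074 ± 0.24 on its brightest tested probe (95% interval −0.55 to 0.53) and by −0.18 and −0.031 on the other two. Its log2 intensity there was 6.46, 7.24 and 6.79 in heterozygous and 6.80, 6.85 and 6.82 in null samples, so the null values lay inside the heterozygous range. Fadd, the adaptor that links Fas to the caspase, gave −0.083, 0.12, 0.32 and 0.076 on its 4 probes, the intervals of which together ran from −0.74 to 1.39. Casp8, the initiator caspase of this route, had 1 tested probe, detected on 1 heterozygous array and on 2 null arrays, and differed by 0.28 ± 0.22. Bid, which carries the signal from Casp8 to mitochondria, differed by −0.24 ± 0.27. The Fas differences lay outside the 95% intervals of all 3 tested Tnfrsf10b probes, but a difference between the 2 genes was not tested.

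Among p53 targets that act in cell cycle arrest and stress, most tested probes were lower in null lenses. Of 13 tested probes of 7 genes, 10 were lower and 3 higher, and 6 from 4 genes had an unadjusted p under 0.05, 5 lower (against 4.44% of all probes) and 1 higher (against 4.27%). Of the 7 genes 5 were lower, against 46.7% of all named genes, with a median of −0.47. None passed after adjustment.

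Ccng1, or cyclin G1, one of the most readily induced p53 targets, had 3 bright probes, all lower in null lenses. The one with the smallest p was at 11.48, 11.68 and 10.98 on the heterozygous and 10.66, 10.82 and 10.40 on the null arrays. The groups did not overlap, but heterozygous array 3 lay close to null array 5. The difference was −0.75 ± 0.25 (1.68-fold, limma adjusted p = 0.399). The next probe, at 10.60, 10.55 and 9.94 against 9.83, 9.77 and 9.08, also kept the groups apart and differed by −0.80 ± 0.28 (limma adjusted p = 0.455). The brightest, at 12.79, 12.03 and 12.26 against 12.13, 11.68 and 11.88, let them overlap and differed by −0.47 ± 0.25 (limma adjusted p = 0.659), or −0.25 without heterozygous array 1. After scaling to a common median the 3 Ccng1 differences, in this order, were −0.42, −0.40 and −0.26. Relative to the median of all probes under that scaling, 0.28, they were −0.71, −0.69 and −0.54.

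Sesn1, a sestrin that restrains growth signalling under stress, was at 8.76, 8.53 and 8.73 in heterozygous and 8.28, 7.89 and 8.22 in null samples on the probe with the smaller p, without overlap. It differed there by −0.54 ± 0.21 (limma adjusted p = 0.509), and this shrank to −0.096 when arrays were instead only scaled to a common median. Over all probes that scaling shifted the median difference from 0.015 to 0.28, so relative to it the Sesn1 difference was −0.38. On its brighter probe, at 9.55, 8.86 and 9.98 against 9.12, 8.09 and 9.20, the groups overlapped (−0.66 ± 0.37, limma adjusted p = 0.67). Null array 5 was the lowest on both probes.

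Gadd45b, a stress-induced regulator of kinase signalling and DNA repair, was at 8.72, 9.15 and 8.54 in heterozygous and 8.56, 7.63 and 8.06 in null samples on its brighter probe, where null array 4 lay just above heterozygous array 3. It differed by −0.72 ± 0.28 (limma adjusted p = 0.51). On the dimmer probe, at 5.96, 6.08 and 5.84 against 5.83, 4.66 and 5.11, the groups were apart by only the gap between array 3 and array 4, and the difference was −0.76 ± 0.30 (limma adjusted p = 0.509). Null array 5 weighed on both, which became −0.50 and −0.47 without it. Its relative Gadd45a, which like Cdkn1a is a classical p53 target, differed by −0.41 ± 0.27 and −0.45 ± 0.39, with null array 5 inside the heterozygous range on both probes. These values rested on single arrays, the second being −0.11 without null array 6, −0.17 without heterozygous array 2 and −0.82 without null array 5. After scaling to a common median the 2 Gadd45a differences were −0.12 and −0.062. Relative to the median of all probes under that scaling they were −0.40 and −0.35. Phlda3, an inhibitor of Akt signalling, gave opposite signs on its probes, −0.69 ± 0.46 and 0.41 ± 0.36, and Trp53inp1 differed by 0.18 ± 0.24.

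Cdkn1a, the cell cycle inhibitor p21 and the best known p53 target, ran the other way. It had 3 dim probes, of which 1 was tested, which was detected on all 3 null and none (0) of the heterozygous arrays. The deposited intensities were 61.0, 54.8 and 64.3 on the heterozygous and 69.4, 235.2 and 89.5 on the null arrays, which normalized to 4.46, 4.27 and 4.34 against 4.76, 7.07 and 5.43. Null array 5 stood far above the others, while null array 4 lay close to background. Since the heterozygous level is only a bound, the null level of Cdkn1a was at least 1.94-fold higher, taking for each heterozygous array the dimmest signal that any detected probe had there as the limit (measured means 5.75 ± 1.19 and 4.36 ± 0.092, limma adjusted p = 0.45). The filter keeps a probe detected on the 3 null arrays alone, so this probe could enter the test only by being higher in them. The bound was 1.21-fold without null array 5 and 2.71-fold without null array 4. Of the other Cdkn1a probes, 1 was detected on null array 5 alone and 1 on null arrays 4 and 5, and neither on any heterozygous array.

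Leucocyte markers had the same order over the null arrays as Cdkn1a. The mean of the 11 tested of 17 listed exceeded its heterozygous mean by 0.82 on null array 4, by 3.30 on array 5 and by 1.62 on array 6, while the heterozygous arrays lay between −0.048 and 0.071. Of the 13 tested probes of the list, 8 were detected on no heterozygous array, so they entered the test only through the null arrays. For these 8 the heterozygous level is only a bound, and the mean differences rest in part on background values. Of the 16 with a probe, between 2 and 5 were detected on heterozygous and between 11 and 14 on null arrays, and their summed intensity ran from 374 to 409 and from 670 to 5976. Ptprc and Itgam, which define leucocytes and myeloid cells, were detected on no array. The part of these markers in the Cdkn1a values was not tested.

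**Figure D3:**
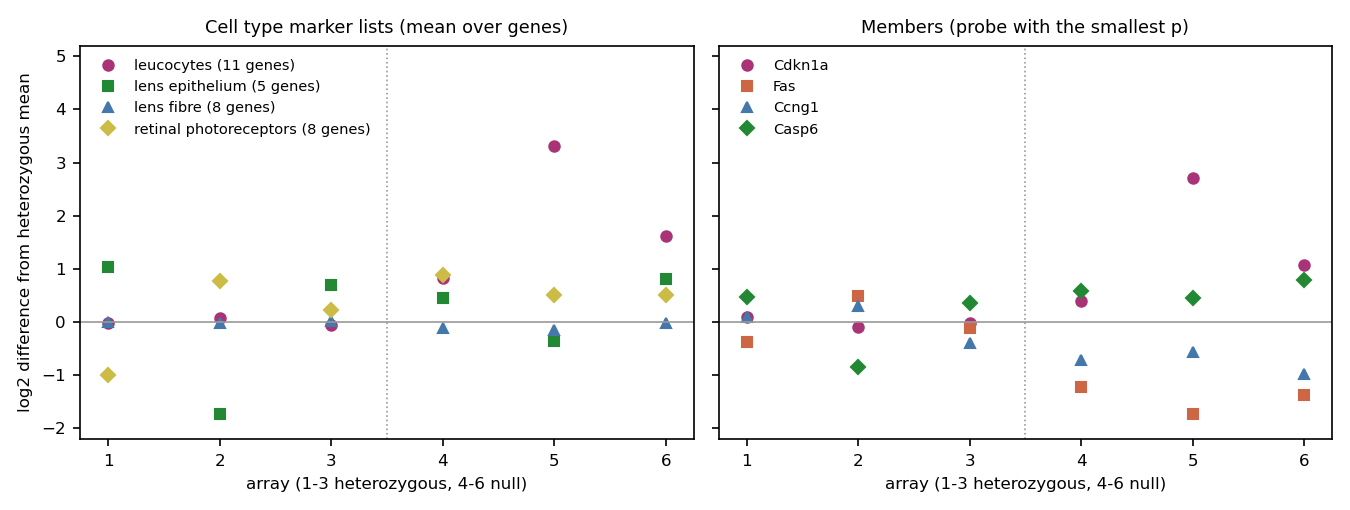
Difference from the heterozygous mean on each array (y axis, log2) of 4 cell type marker lists, as the mean over their tested genes (left), and of 4 members on their tested probe with the smallest p (right). Leucocyte markers and Cdkn1a are both highest on null array 5, while lens epithelium markers and Casp6 are both lowest on heterozygous array 2.

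Mdm2, which holds p53 in check, was close between the groups. It was at 10.76, 10.59 and 10.90 on the heterozygous and 10.87, 10.21 and 10.40 on the null arrays on its brighter probe, and at 10.19, 10.80 and 10.10 against 10.28, 10.42 and 9.84 on the other tested probe. The groups overlapped on both. The differences were −0.26 ± 0.24 (95% interval −0.79 to 0.27, limma adjusted p = 0.817) and −0.18 ± 0.26 (−0.78 to 0.41, limma adjusted p = 0.895). After scaling to one median both were above 0, at 0.11 and 0.18, but below the median of all probes there, at −0.18 and −0.10 relative to it. Zmat3, a zinc finger protein that p53 induces, differed by 0.14 ± 0.25.

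To set these members beside their promoters, the 300 bases from 250 before to 50 after each annotated start (RefSeq, GRCm38.p6) were searched for the p53 half-site consensus, a palindrome of 10 letters that reads the same on both strands. The table held such windows for 24 of the 30 genes, and 7 of the 24 (29.2%) had a match, against 9.55% of 27025 genes. The 7 were Bax, Ccng1, Cdkn1a, Gadd45a, Mdm2, Sesn1 and Trp53. Of the 5 of them with measured levels, Ccng1, Gadd45a, Mdm2 and Sesn1 had a lower mean in null lenses on every tested probe and Cdkn1a a higher one, and none passed the test. The tested Cdkn1a probe was detected on null arrays alone, so it could enter the test only by being higher in them. Among members with a window but no match, Fas, Gadd45b, Bcl2 and Bid were also lower on every tested probe. The dimmest of these Bcl2 probes passed the filter only through the heterozygous arrays. Aifm1, Apaf1, Casp6, Casp8, Casp9 and Mcl1 were higher on every tested probe, Bak1 and Sesn2 had no tested probe, and the rest were mixed. Of all named genes tested, 46.7% were lower. A link between a match and direction was not tested. The window of Fas had no match, which says only that these letters are absent from it. The windows shown are that of Fas, on which the results turn, and those of the 3 genes that both had a match and had a probe that separated the groups, with matches in capitals. For Cdkn1a that probe was the one detected on null arrays alone.
Fas, chr19:34290409-34290708, plus strand: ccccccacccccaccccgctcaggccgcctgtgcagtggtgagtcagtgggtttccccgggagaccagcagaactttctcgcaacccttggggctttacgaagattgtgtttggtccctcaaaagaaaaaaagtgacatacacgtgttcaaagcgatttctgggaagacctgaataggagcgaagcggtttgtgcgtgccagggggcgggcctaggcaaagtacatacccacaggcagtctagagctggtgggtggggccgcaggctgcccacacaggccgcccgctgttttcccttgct
Ccng1, chr11:40755237-40755536, minus strand: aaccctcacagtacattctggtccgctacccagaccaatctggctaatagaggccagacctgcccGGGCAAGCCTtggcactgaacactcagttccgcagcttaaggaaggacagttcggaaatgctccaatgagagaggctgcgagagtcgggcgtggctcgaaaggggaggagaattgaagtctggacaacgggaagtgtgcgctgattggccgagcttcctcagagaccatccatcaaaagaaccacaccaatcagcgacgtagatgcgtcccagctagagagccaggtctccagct
Sesn1, chr10:41887189-41887488, plus strand: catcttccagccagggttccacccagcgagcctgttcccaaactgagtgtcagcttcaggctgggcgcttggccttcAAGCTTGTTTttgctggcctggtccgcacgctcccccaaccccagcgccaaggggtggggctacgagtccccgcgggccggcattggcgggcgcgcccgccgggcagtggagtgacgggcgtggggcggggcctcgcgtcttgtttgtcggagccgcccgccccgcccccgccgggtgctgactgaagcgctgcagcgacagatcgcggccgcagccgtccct
Cdkn1a, chr17:29090729-29091028, plus strand: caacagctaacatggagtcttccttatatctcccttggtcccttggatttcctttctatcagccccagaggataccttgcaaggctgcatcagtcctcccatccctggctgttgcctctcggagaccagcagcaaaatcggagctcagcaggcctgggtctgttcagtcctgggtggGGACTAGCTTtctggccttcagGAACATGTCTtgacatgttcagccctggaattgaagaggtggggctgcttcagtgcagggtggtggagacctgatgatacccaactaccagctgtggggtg

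The match in Ccng1 began 185 bases before the annotated start and that in Sesn1 173 bases before it, on the second of the 2 Sesn1 windows. Cdkn1a had 2 matches in the window of its upstream start, 73 and 51 bases before it, which did not overlap each other, and none in that of its downstream start. A match is a run of letters, not a shown binding site.

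BCL2 family members that promote death did not share a direction. Of the 5 of 6 analysed, Bak1 and Bik, with 1 probe each, were detected on no array. Bbc3, which encodes PUMA, was at 6.91, 6.30 and 7.17 in heterozygous and 7.67, 6.82 and 7.04 in null samples on its brightest probe and differed by 0.38 ± 0.30, while its other tested probe gave −0.35 ± 0.25. Pmaip1, which encodes NOXA, differed by −0.12 ± 0.22, and Bcl2l11, which encodes BIM, by 0.25 ± 0.21 and −0.024 ± 0.22. The limma adjusted p of these 5 probes ran from 0.76 to 0.986.

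Among the opposing members, Bcl2 has 9 probes, of which 4 were tested and all 4 were lower in null lenses. The probe with the smallest p, detected on all heterozygous arrays and on no null array, was at 4.75, 5.48 and 4.81 against 4.5, 4.48 and 4.49 and did not overlap. Its level in null lenses is a bound, and it was at least 1.25-fold lower there (limma adjusted p = 0.591, bound 1.07-fold without heterozygous array 2). The brighter Bcl2 probes gave −0.24 ± 0.27, −0.21 ± 0.28 and −0.084 ± 0.22, each with overlapping groups. Bcl2l1, which encodes BCL-XL, differed by 0.13 ± 0.28 and −0.15 ± 0.25. Mcl1, a short-lived relative, was at 9.35, 7.90 and 9.33 in heterozygous and 8.86, 8.98 and 9.15 in null samples and differed by 0.14 ± 0.37, with heterozygous array 2 far below the rest.

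The caspases and mitochondrial effectors had no probe that passed. All 7 tested probes of the 4 genes had a higher mean in null lenses, with differences from 0.18 to 0.95 and a gene median of 0.40. Over all named genes tested, 46.7% were lower. Of the 7 probes, 1 had an unadjusted p under 0.05, against 8.70% of all probes. The higher means of these genes rested in part on heterozygous array 2, without which Aifm1 was at −0.039 and −0.048 and Apaf1 at 0.13 and −0.037. Casp9, the caspase that Apaf1 activates, was at 7.19, 6.45 and 7.34 in heterozygous and 8.17, 7.58 and 8.09 in null samples. All 3 null values were above the 3 heterozygous ones, with null array 5 the nearest. The difference was 0.95 ± 0.29 (1.93-fold, 95% interval 0.30 to 1.60, limma adjusted p = 0.347), and its adjusted p ran from 0.0834 to 0.763 over the alternatives. It was also lowest on heterozygous array 2, without which the difference was 0.68. The 3 other Casp9 probes were detected on no array, so this rests on 1 probe.

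Casp9, Sesn2 and Trp53inp1 lie on chromosome 4, as Tdrd7 does. Of the 20 named probes past the adjusted threshold, 6 were on that chromosome, as were 841 of 12924 named probes tested. Tdrd7 itself, the mutated gene, was among these 6. The part of this position in the Casp9 value was not tested.

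Casp6, an executioner caspase, was at 5.56, 4.26 and 5.46 in heterozygous and 5.68, 5.55 and 5.88 in null samples on its dimmer probe and differed by 0.61 ± 0.34 (limma adjusted p = 0.67), which was 0.20 without heterozygous array 2. The brighter probe gave 0.34 ± 0.29, and 0.09 without that array. Apaf1, the scaffold of the apoptosome, differed by 0.45 ± 0.31 and 0.33 ± 0.33, and Aifm1, a mitochondrial flavoprotein that can act on DNA after release, by 0.18 ± 0.28 and 0.19 ± 0.28. Heterozygous array 2 lay below the mean of heterozygous arrays 1 and 3 on all 9 tested probes of Casp6, Apaf1, Mcl1 and Fadd, with gaps from −1.61 to −0.48. The lens epithelium markers were also lowest on that array, and their part in these values was not tested.

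**Figure D4:**
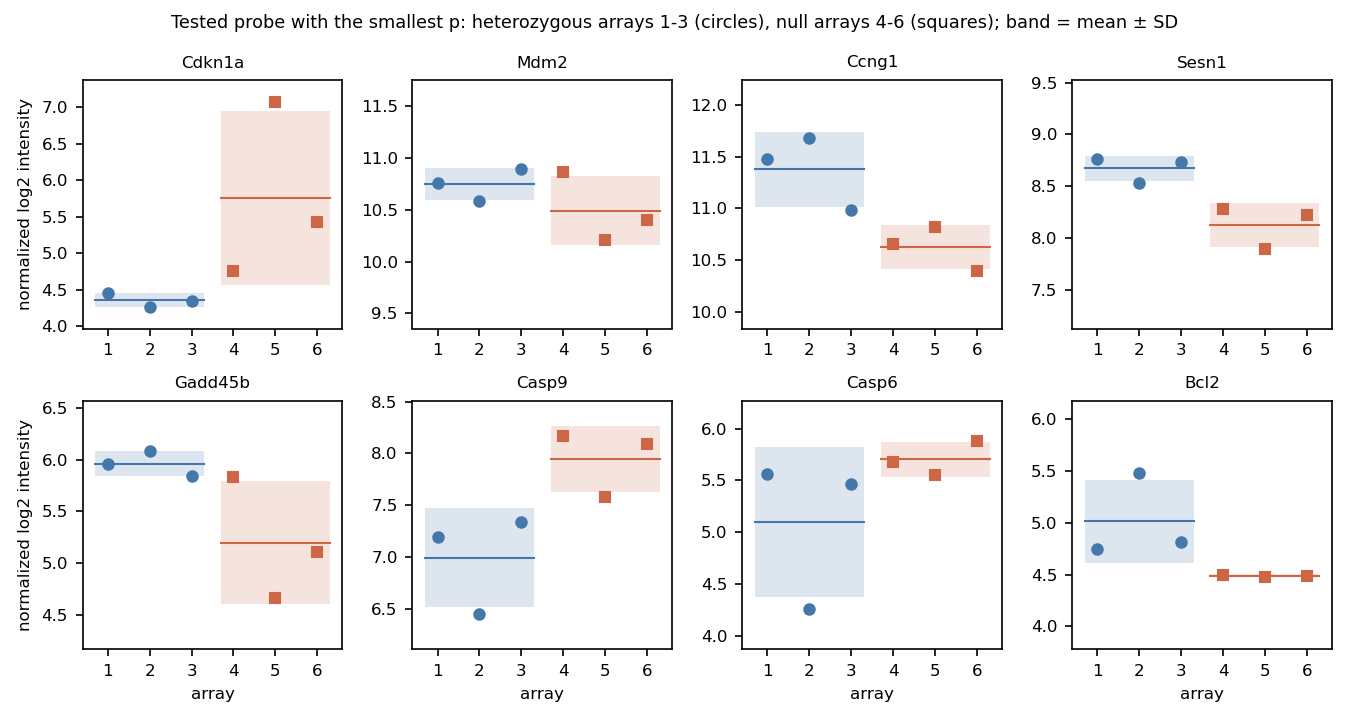
Normalized log2 intensity (y axis, one scale per panel) on heterozygous arrays 1 to 3 (circles) and null arrays 4 to 6 (squares) of 8 members, each on its tested probe with the smallest p, with lines at the group means and bands of 1 SD. The groups overlap for Mdm2 and Casp6 and not for the other 6, among which null array 5 is far above the rest for Cdkn1a. On the brightest probes of Ccng1, Sesn1, Gadd45b and Bcl2, not shown here, the groups overlap. The Bcl2 probe shown was detected on no null array and the Cdkn1a probe on no heterozygous array.

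Counting overlap alone, 10 of the 47 tested member probes (21.3%) had groups that did not overlap, against 15.3% of all probes tested. In 8 of them the null values were lower, against 7.86% of all probes, and in 2 higher, against 7.43%. They belonged to 7 genes, Fas, Ccng1, Sesn1, Gadd45b, Bcl2, Cdkn1a and Casp9. The Cdkn1a and Bcl2 probes were detected in 1 group alone and passed the filter only through it. Among probes detected in both groups, a restriction chosen after seeing the data, 8 of 45 member probes (17.8%) did not overlap, against 14.4% of all such probes. After scaling to a common median it was 5 of 47 (10.6%), against 10.1%. Without heterozygous array 2 and null array 5, which leaves 2 arrays a group, it was 18 of 42 (42.9%) against 40.0% of all probes. The 33 member probes not tested included all those of Bak1, Bik, Perp and Sesn2. Perp, a p53 target of epithelial junctions, and Bak1 and Bik were detected on no array, and Sesn2 was detected on 2 null arrays on 1 of its 3 probes.

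The rest of the pathway was described from 34 other p53 targets and 36 other apoptosis genes. Of the 20 other p53 targets tested, 8 were higher and 12 lower, where 46.7% of all named genes tested were lower. Their median was −0.045, and 1 passed, against 0.201% of all named genes tested. It was Plk3, a stress-responsive kinase also on chromosome 4, at 6.04, 6.14 and 6.91 in heterozygous and 8.04, 8.42 and 8.08 in null samples (1.82 ± 0.27, limma adjusted p = 0.0487). It passed in 4 of 16 alternatives, with an adjusted p from 0.0144 to 0.277. Ephx1, an epoxide hydrolase, differed by 0.64 ± 0.28, the repair nuclease Ercc5 by −0.49 ± 0.23 and Zfp365 by −0.56 ± 0.27, with limma adjusted p from 0.566 to 0.6. The second tested probes of Ercc5 and Zfp365 gave −0.22 ± 0.25 and −0.27 ± 0.99.

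Of the 18 other apoptosis genes tested, 12 were higher and 6 lower, where 46.7% of all named genes tested were lower. Their median was 0.22, and 0 passed in limma, with 3 of 18 at an unadjusted p under 0.05, against 9.13% of all named genes. Tnfrsf21, a death receptor, was at 5.0, 4.38 and 4.76 in heterozygous and 4.93, 7.13 and 5.80 in null samples, highest on null array 5 like the leucocyte markers, and differed by 1.24 ± 0.48 (detected on 1 of 3 heterozygous arrays). Bmf, a death-promoting BCL2 relative, differed by 0.56 ± 0.23 and was also detected on 1 of 3 heterozygous arrays. Birc7, an inhibitor of apoptosis that is bright in lens, was at 13.48, 13.18 and 13.40 against 12.94, 12.62 and 13.04 (−0.49 ± 0.21), and the mitochondrial protease Htra2 differed by 0.42 ± 0.20, 0.45 ± 0.29 and 0.024 ± 0.29 on its 3 tested probes. On the probe with the smallest p, the limma adjusted p of these 4 genes ran from 0.503 to 0.601.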

How the data were processed

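Total RNA was extracted with a Qiagen RNeasy kit and labelled as biotinylated cRNA, per the labels' protocols. In the deposited raw table the authors give 1 intensity on a linear scale and, per the file headers, 1 detection p-value per probe and array. Column names show the group only. The deposited series matrix holds a rescaled intensity per sample, by a method not stated by the authors, with medians from 64.8 to 66.2. It was used only as an alternative. Raw intensities were background-corrected, quantile-normalized and log2-transformed by neqc (limma 3.58.1, R 4.3.3) with an offset of 16, which pulls differences of dim probes toward 0. A probe entered the test where 3 or more of the 6 arrays had it at a detection p under 0.05. Null and heterozygous samples were compared by limma's moderated test (lmFit, eBayes), and p-values were adjusted by Benjamini-Hochberg over all 14902. The fit was also run on simulated data with independent noise and no outlying array, which is no check on uneven arrays. Symbols came from the platform's annotation, in which 34885 probes have 1 gene, 18 several and 10378 none. Members and lists were chosen with earlier results of these data known. Values per array are given for Fas, Cdkn1a, Mdm2 and the 10 further probes with the smallest p, and for a few others chosen after their values were seen. Alternatives varied the normalization, background correction, offset, filter, source of values, array weights and the arrays included. Quantile normalization after the log2 step was added as an alternative after seeing the data.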

Additional observations from a re-analysis of the deposited data

How the results depend on the processing

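No member probe passed under 15 of the 16 alternatives, and with array weights 1 did, the third Fas probe (−1.21). The count of all probes past the threshold was 26 and moved far more, to 3 after scaling arrays to one median, 14 with no background correction, 14 with an offset of 50, 0 with no filter, 0 on the series matrix values, 261 with array weights, 98 without heterozygous array 2 and null array 5, and from 1 to 18 when 1 array was left out. The 1 other p53 target past the threshold became 0 after median scaling, with no background correction, with an offset of 50, with no filter and on the series matrix values, and was 0 whichever array was left out. Member probes without overlap numbered 5 after median scaling (10.6%, against 10.1% of all probes), 18 without both arrays (42.9%, against 40.0%), from 10 (22.2%, against 23.1%) to 17 (37.0%, against 24.8%) leaving out 1, and 8 among probes detected in both groups. The median over member genes, 0.059, was 0.37 after median scaling (median of all named genes 0.32), −0.083 for probes detected on all 6 arrays, −0.044 with array weights, −0.10 without both arrays and −0.14 by the probe with the smallest p, and ran from −0.11 to 0.028 leaving out 1 array. Of the 47 probes, 23 kept their direction in every alternative in which they were tested, all 3 of Fas among them. After median scaling the sign turned for Mdm2 (0.11 and 0.18), Bcl2 (0.15, 0.16 and 0.22), Bid (0.13), Tnfrsf10b (0.16, 0.013 and 0.39), Fadd (0.34) and Bcl2l11 (0.039). That scaling shifted all probes by a median of 0.28, and relative to this 9 of these 11 probes were still below 0, all but 1 of Tnfrsf10b (0.11) and that of Fadd (0.052). With array weights it turned for Trp53inp1 (−0.088), Aifm1 (−0.055), Bcl2l1 (0.10), Bcl2 (0.0093), Mcl1 (−0.26), Fadd (−0.14) and Tnfrsf10b (0.085). Without both arrays it turned for Casp6 (−0.05), Bcl2 (0.11), Trp53inp1 (−0.083), Zmat3 (−0.075), Mcl1 (−0.34), Fadd (−0.089 and −0.054) and Tnfrsf10b (0.19). On the series matrix values it turned for Tnfrsf10b (0.0019). The cause was not tested. When 1 array was left out, 19 probes turned sign at least once, over ranges of −0.039 to 0.45 and −0.048 to 0.39 for Aifm1, −0.037 to 0.54 for Apaf1, −0.43 to 0.032 and −0.42 to 0.062 and −0.23 to 0.036 for Bcl2, −0.042 to 0.38 for Bcl2l1, −0.18 to 0.048 for Bcl2l11, −0.22 to 0.68 and −0.29 to 0.36 and −0.27 to 0.027 and −0.31 to 0.36 for Fadd, −0.34 to 0.39 for Mcl1, −0.31 to 0.036 for Mdm2, −0.038 to 0.65 for Phlda3, −0.35 to 0.017 and −0.20 to 0.034 and −0.19 to 0.20 for Tnfrsf10b, −0.010 to 0.32 for Zmat3. Only the series matrix carries replicate numbers. By rank of the probes, its heterozygous and null samples of number 2 matched heterozygous array 2 and null array 5 (Spearman correlation of 1 for each). Deviations from group means correlated at −0.0076, 0.25 and 0.57 between null and heterozygous samples that shared number 1, 2 and 3. Between null and heterozygous samples of unlike numbers the correlations ran from −0.38 to 0.075. Whether the numbers pair the samples was not tested. With a replicate block on the series matrix values 0 probes, 0 member probes and 0 other p53 targets passed, Tnfrsf10b was at 0.0019, and the Fas adjusted p-values were 0.541, 0.531 and 0.43. The tested Cdkn1a and Casp8 probes and the dimmest tested probes of Bcl2, Bcl2l1 and Tnfrsf10b left the filter when certain arrays were left out. They were then not tested. Of the 47 member probes, from 43 to 46 were tested leaving out 1 array, and 42 without both arrays.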
